A study of Mus musculus with 11 samples.

Results

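The genes described here were Spp1, Ibsp, Dmp1 and Mepe, which encode the phosphoproteins of mineralized bone matrix known as the SIBLING family (small integrin-binding ligand, N-linked glycoproteins). They were taken by symbol from the merged count table, where they were 4 of 22600 genes, by a rule that uses names and no measured value. The family itself was chosen with earlier results of these data known. The shares of all genes given beside its calls are therefore descriptions, not tests. RNA was sequenced from the whole distal tibia, bone with its marrow, of 24-week-old C57BL6/SJL mice fed ad libitum, with 1 library per mouse. The BMAd-DTA group (n = 7) carried a Cre recombinase for bone marrow adipocytes (BMAds) that switches on diphtheria toxin A (DTA) from the Rosa26 locus and thereby kills the cell. This Cre sits in the Adipoq locus and is turned into its active orientation by FLPo recombinase driven by Osterix (Sp7), so it acts where both genes have been expressed. The Control group (n = 4) had the genotype BMAd-WT, and per the study's methods all mice of both groups carried Osterix-FLPo and the FLPo-dependent Adipoq-Cre, which lowers circulating adiponectin. Osterix is itself an osteoblast gene, and the Cre also reaches a small subset of marrow adipogenic precursors. The comparison asks how far matrix phosphoprotein transcripts differ in bone in which marrow adipocytes were targeted for loss.

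SIBLING proteins are secreted, acidic, heavily phosphorylated proteins that bind calcium and hydroxyapatite, and most carry the Arg-Gly-Asp motif through which integrins hold cells to the matrix. Osteopontin (Spp1) is made by osteoblasts but also by osteoclasts, macrophages and hypertrophic chondrocytes, and it restrains crystal growth and helps osteoclasts attach. Bone sialoprotein (Ibsp) is made by osteoblasts at sites of new bone and can nucleate mineral. Dentin matrix protein 1 (Dmp1) and matrix extracellular phosphoglycoprotein (Mepe) are made mainly by osteocytes, the cells buried in bone. Dmp1 with the peptidase PHEX restrains the phosphate-wasting hormone FGF23, and the acidic peptide that is cut from Mepe inhibits mineralization.

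The 4 genes lie in 1 cluster on mouse chromosome 5, all on the forward strand (GRCm38, the assembly behind mm10; GENCODE M21 gene bounds). Dmp1 spans chr5:104202613-104214102, Ibsp chr5:104299171-104311469, Mepe chr5:104325329-104338611 and Spp1 chr5:104435118-104441050, a stretch of 238 kb from end to end. The promoter letters are shown because the 4 genes share a cluster and because these letters share an arrangement. In each, the letters ATTGG, which read CCAAT on the other strand (the box bound by the NF-Y complex), are followed at the same distance by an A/T-rich box of the TATA kind. Both are in capitals in the 72-base runs that follow, from RefSeq promoters of GRCm38.p6, forward strand, at chr5:104202520-104202591 (Dmp1), chr5:104299193-104299264 (Ibsp), chr5:104325268-104325339 (Mepe) and chr5:104435025-104435096 (Spp1).
Dmp1: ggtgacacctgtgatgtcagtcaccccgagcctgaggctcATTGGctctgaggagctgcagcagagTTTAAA
Ibsp: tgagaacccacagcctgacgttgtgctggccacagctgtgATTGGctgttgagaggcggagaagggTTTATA
Mepe: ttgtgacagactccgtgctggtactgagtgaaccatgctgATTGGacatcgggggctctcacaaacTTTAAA
Spp1: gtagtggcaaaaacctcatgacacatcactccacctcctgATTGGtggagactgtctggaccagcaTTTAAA

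In all 4 promoters 21 bases separated ATTGG from the box, and the first bases of these elements lay 26 apart. Counted back from the RefSeq start, ATTGG began at -57 in Dmp1, -54 in Ibsp, -46 in Spp1 and -21 in Mepe. The Mepe box therefore fell at 6 to 11 bases after the annotated start, and the GENCODE start of Ibsp lies 116 bases before its RefSeq start, upstream of the run shown. The arrangement, ATTGG on the forward strand with the box TTTAAA, the box TTTATA or the box TATAAA starting 26 bases on, was present in 21 of 32851 RefSeq promoter windows of 300 bases (0.0639%), belonging to 17 of 27025 gene symbols. With the distance relaxed to 16 to 36 bases it was present in 196 windows (0.597%). The letters and the distance were chosen after the 4 promoters had been read, so these shares describe how common the arrangement is and test nothing. Besides the SIBLING genes, the 17 symbols included Sost, which encodes the osteocyte Wnt inhibitor sclerostin. Sost is named because it was the 1 symbol that is also in the gene lists used here, and the rest are not described. A further RefSeq start of Dmp1, at -5038 from its GENCODE start, and one of Spp1, at 1074 after it, lacked the arrangement. On either strand and in the 250 bases before the start, CCAAT was in 33.8% of promoters and TTTAAA in 12.1%. The letters ACCACA, a core that RUNX factors read, were in 14.0% of promoters, including those of Dmp1 (-164), Spp1 (-128) and Mepe (-118 and, on the other strand, -80), while these letters were not found in those 250 bases of Ibsp.

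Between 16969529 and 18637663 read pairs per library were counted on genes. The share of unmapped pairs fell into 2 ranges, 9.10% to 11.5% in Control replicates 1 and 4 and BMAd-DTA replicates 1, 4 and 7, and 13.8% to 15.1% in the other 6 libraries. Control replicate 1 stood apart by its bone collagen message, with Col1a1 at 1245 CPM (counts scaled to library size with TMM factors) against 5588 to 6226 in the other Control libraries. Control replicate 3 had the highest skeletal muscle marker sum of the 11 libraries (1513 CPM, range of all libraries 33.2 to 1513). Adipocyte markers summed to 1055 to 1823 CPM in Control and 405 to 1275 CPM in BMAd-DTA libraries, so the groups overlapped, and for 11 of 11 the fitted difference was below 0. Bone cell markers were present in every library. In whole bone, fewer cells of a type and less RNA per cell cannot be told apart.

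All 4 SIBLING transcripts had higher mean levels in BMAd-DTA tibiae, by 1.49-fold to 2.0-fold, but in edgeR's quasi-likelihood fit to 16496 genes no member reached an adjusted p under 0.05. In that test 0.0727% of genes passed on the higher side. In DESeq2, Dmp1 and Mepe passed, against 2.78% of genes called higher. At an unadjusted p under 0.05, 3 of the 4 passed in edgeR, where 7.89% of all genes did so on the higher side. In the plot of levels by mouse, the groups overlapped for every gene.

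**Figure D1:**
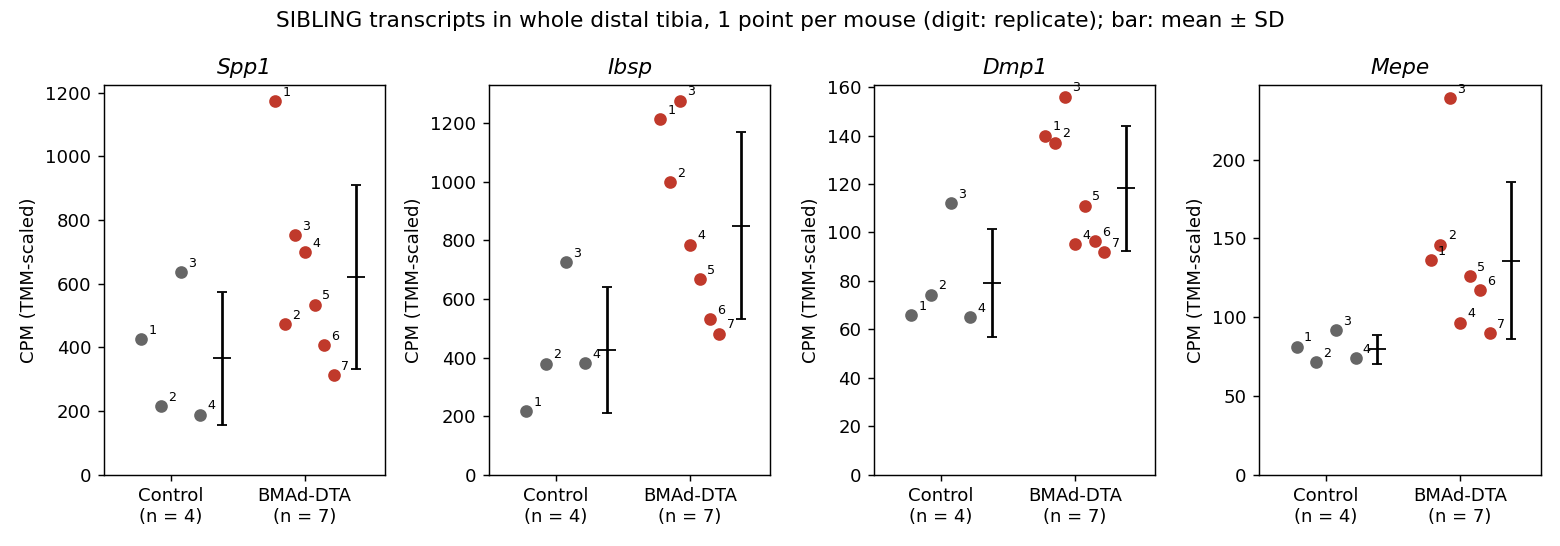
Level of each SIBLING transcript in CPM (vertical axis, starting at 0) for 4 Control and 7 BMAd-DTA tibiae, 1 point per mouse, with the replicate digit beside it and the mean ± SD at the right of each group. Control replicate 3 is the highest Control point in all 4 panels, and 6 of 7 BMAd-DTA points lie above every Control point for Mepe against 3 or 4 of 7 for the others.

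Spp1 counted 425, 214, 635 and 188 CPM in Control replicates 1 to 4, and 313 (lowest), 533 (median) and 1173 (highest) CPM in BMAd-DTA. Only 3 of 7 BMAd-DTA libraries were above every Control library, and the lowest of the 7 was below Control replicates 1 and 3. The means were 365 ± 209 CPM (SD, n = 4) and 621 ± 288 CPM (SD, n = 7). The fitted difference was 0.77 ± 0.38 on the log2 scale (SE; edgeR adjusted p = 0.339, DESeq2 adjusted p = 0.381), and its 95% interval, -0.06 to 1.59, included 0. Spp1 was thus the most scattered of the 4 within the Control group, with a coefficient of variation of 57.1%.

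Ibsp counted 217, 379, 725 and 380 CPM in Control replicates 1 to 4, and 481 (lowest), 785 (median) and 1278 (highest) CPM in BMAd-DTA. Every BMAd-DTA library was above Control replicates 1, 2 and 4, and 4 of 7 were also above Control replicate 3. The means were 425 ± 214 CPM (SD, n = 4) and 851 ± 320 CPM (SD, n = 7). Bone sialoprotein message had the greatest fitted difference of the family, 1.0 ± 0.34 on the log2 scale (SE; 95% interval 0.28 to 1.72; edgeR adjusted p = 0.156, DESeq2 adjusted p = 0.105). Without Control replicate 3, the difference was 1.39 in edgeR (adjusted p = 0.0541), and the DESeq2 adjusted p without that library was 0.00425, the 1 fit of 11 that passed. Without Control replicate 1, the difference was 0.78 (edgeR adjusted p = 0.421, DESeq2 adjusted p = 0.407).

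Dmp1 counted 65.8, 74.3, 112 and 64.9 CPM in Control replicates 1 to 4, and 91.9 (lowest), 111 (median) and 156 (highest) CPM in BMAd-DTA. As for Ibsp, Control replicates 1, 2 and 4 lay below all 7 BMAd-DTA libraries, whereas Control replicate 3 lay above 4 of them. The means were 79.3 ± 22.4 CPM (SD, n = 4) and 118 ± 25.8 CPM (SD, n = 7). The fitted difference was the smallest of the family at 0.57 ± 0.18 on the log2 scale (SE; 95% interval 0.18 to 0.97), with an edgeR adjusted p of 0.144 and a DESeq2 adjusted p of 0.0328. Without Control replicate 3 it was 0.79 and passed in edgeR also (adjusted p = 0.0458). The DESeq2 call was lost without Control replicate 1 (adjusted p = 0.244), 2 (0.140) or 4 (0.126), or BMAd-DTA replicate 1 (0.0784), 2 (0.0792) or 3 (0.0820).

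Mepe counted 81.2, 71.5, 91.5 and 73.9 CPM in Control replicates 1 to 4, and 89.9 (lowest), 126 (median) and 239 (highest) CPM in BMAd-DTA. Here the groups came closest to separating, with 6 of 7 BMAd-DTA libraries above every Control library, a pattern of at least 6 of 7 that 4.78% of all tested genes showed. The means were 79.5 ± 9.0 CPM (SD, n = 4) and 136 ± 49.9 CPM (SD, n = 7). Mepe had the lowest coefficient of variation in Control libraries, 11.3%, but 36.7% in BMAd-DTA libraries. Its fitted difference was 0.77 ± 0.22 on the log2 scale (SE; 95% interval 0.29 to 1.25; edgeR adjusted p = 0.116, DESeq2 adjusted p = 0.0103). BMAd-DTA replicate 3 alone supplied the value of 239 CPM, the next being 146 CPM, and without that mouse the difference was 0.58 (edgeR adjusted p = 0.112, DESeq2 adjusted p = 0.00456). Over the 11 fits that each left out 1 library, DESeq2 called Mepe in 6 and Dmp1 in 5. The call of Mepe was lost without Control replicate 1 (DESeq2 adjusted p = 0.210), 2 (0.0692) or 4 (0.134), or BMAd-DTA replicate 2 (0.104) or 5 (0.0587).

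**Figure D2:**
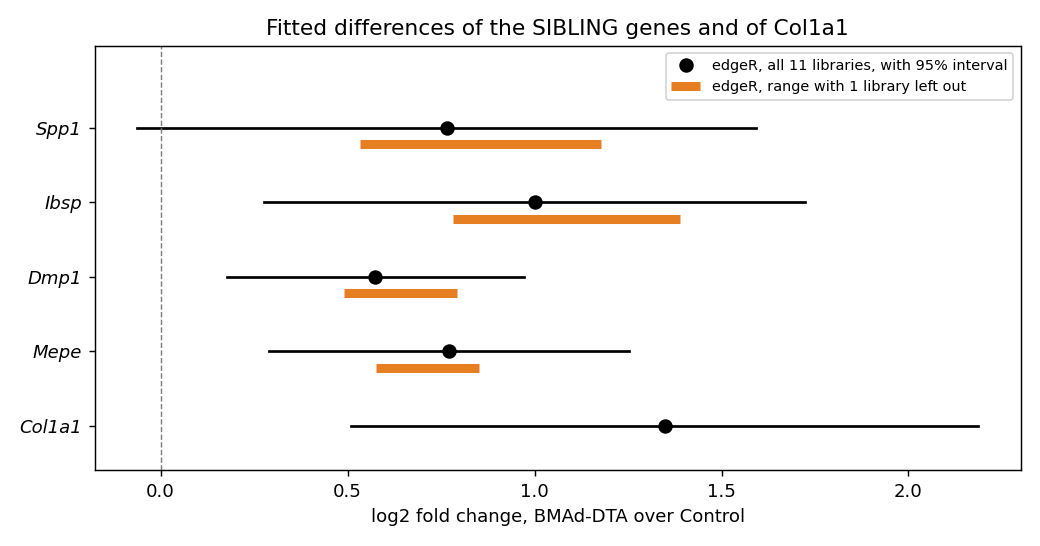
Fitted log2 fold change of BMAd-DTA over Control (horizontal axis) for the 4 SIBLING genes and Col1a1, with the 95% interval in black and, for the SIBLING genes, the range over the 11 fits that each leave out 1 library in orange. The interval of Spp1 crosses 0 and the other 4 do not, and no orange range reaches 0.

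The 2 ranges of unmapped pairs gave different sizes for the same genes, with no sign turned. In libraries below 12% unmapped (2 Control, 3 BMAd-DTA), the log2 ratio of mean CPM was 1.25 for Spp1, 1.47 for Ibsp, 0.74 for Dmp1 and 0.47 for Mepe. In libraries above 12% (2 Control, 4 BMAd-DTA), it was 0.35, 0.65, 0.42 and 0.95 in the same order. Spp1, Ibsp and Dmp1 thus had larger ratios in the first range and Mepe in the second, with too few libraries in each to test the difference. The 2 Control libraries above 12% were replicates 2 and 3, and replicate 3 was the highest Control library for all 4 genes. It stood at 635 CPM for Spp1, 725 for Ibsp and 112 for Dmp1, against 214, 379 and 74.3 CPM in replicate 2. The part of that mouse in the smaller ratios was not tested.

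Per kilobase of exon, Ibsp and Spp1 were far more abundant than Mepe and Dmp1. In Control tibiae, Spp1 stood at 222 ± 127 CPM per kb and Ibsp at 206 ± 103 CPM per kb, Mepe at 47.3 ± 5.35 and Dmp1 at 28.7 ± 8.09 CPM per kb (SD, n = 4). In BMAd-DTA tibiae the order was Ibsp, Spp1, Mepe and Dmp1, at 411 ± 155, 377 ± 175, 80.8 ± 29.6 and 42.7 ± 9.32 CPM per kb (SD, n = 7). Spp1 and Ibsp did not differ beyond their spread in either group. Over all libraries Ibsp ranked 97th and Spp1 102nd of 16496 genes by CPM per kb, Mepe 638th and Dmp1 1263rd. The family took 0.0729% to 0.156% of the counted pairs in Control libraries and 0.0994% to 0.264% in BMAd-DTA libraries.

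The balance within the family overlapped between genotypes. Spp1 made up 31.2% to 59.3% of the summed CPM per kb in Control and 31.6% to 49.8% in BMAd-DTA, and Ibsp 24.1% to 50.3% and 41.0% to 53.3%. The widest gap between Spp1 and Ibsp was in Control replicate 1 (59.3% against 24.1%). Of the 6 log2 ratios between family members, that of Ibsp to Dmp1 differed most between groups, by 0.46, from 2.33 ± 0.43 (SD, n = 4) to 2.79 ± 0.30 (SD, n = 7), with an exact two-sided permutation p of 0.0606 and an adjusted p of 0.303 over the 10 ratios computed. Without Control replicate 1 that difference was 0.26 (exact permutation p = 0.217). The other 5 had raw exact permutation p from 0.291 to 0.767, and the smallest that 4 against 7 mice allow is 0.00303.

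The profile of the family across libraries showed which mice carried the high levels. BMAd-DTA replicate 3 was highest for Ibsp, Dmp1 and Mepe, BMAd-DTA replicate 1 was highest for Spp1, and BMAd-DTA replicate 7 was lowest of its group for all 4. Within the 7 BMAd-DTA mice, log2 CPM of the osteocyte pair Dmp1 and Mepe had Pearson r = 0.896 (exact permutation p = 0.000397, adjusted p = 0.00238 over 6 pairs) and Spearman rho = 0.964 (p = 0.00278, exact permutation, adjusted 0.0167). Leaving out the 2 mice farthest from the median Dmp1 gave r = 0.903. Ibsp and Dmp1 had r = 0.916 (exact permutation p = 0.00972, adjusted 0.0292; rho = 0.893, p = 0.0123, adjusted 0.0357), and r = 0.845 without the 2 farthest mice.

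**Figure D3:**
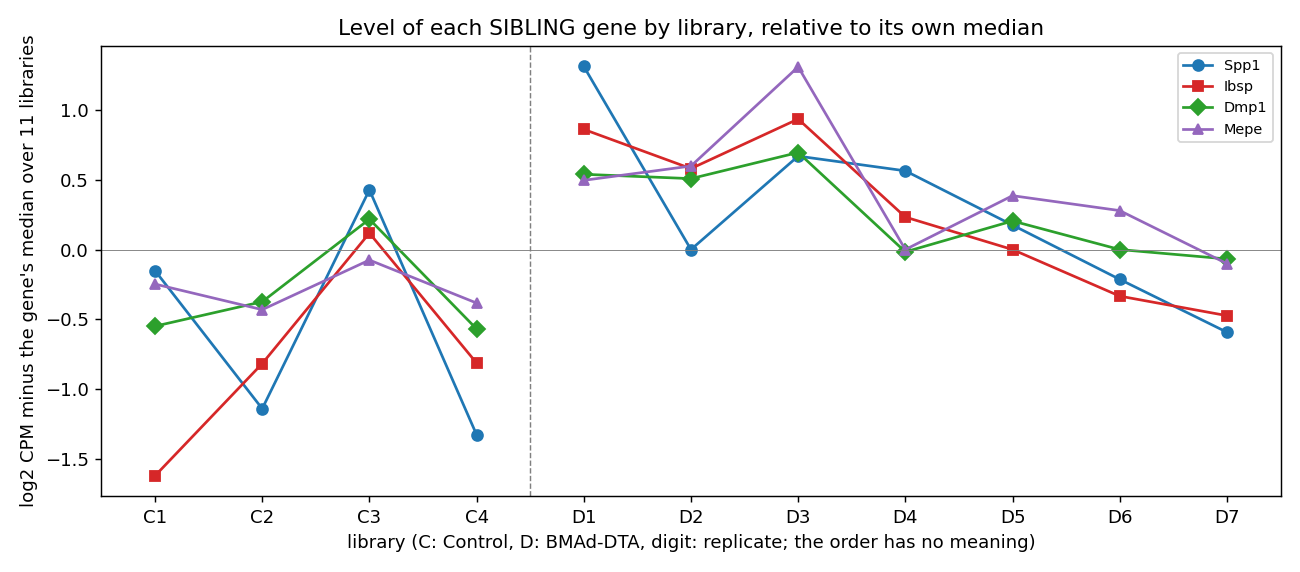
Log2 CPM of each SIBLING gene minus its own median over the 11 libraries (vertical axis), by library (horizontal axis; C, Control; D, BMAd-DTA). All 4 lines peak at C3 among Control libraries, and at D3 or, for Spp1, D1 among BMAd-DTA libraries.

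Spp1 had the lowest coefficients with the osteocyte genes. Within BMAd-DTA mice Spp1 had r = 0.823 with Ibsp (exact permutation p = 0.0242, adjusted 0.0484; rho = 0.857, p = 0.0238, adjusted 0.0357), which was 0.664 without the 2 farthest mice. With Dmp1 it had r = 0.620 (exact permutation p = 0.136, adjusted 0.163; rho = 0.714, p = 0.0881, adjusted 0.106), or 0.341 without the 2 farthest mice. With Mepe it had r = 0.445 (exact permutation p = 0.324, adjusted 0.324; rho = 0.571, p = 0.200, adjusted 0.200), or 0.365 without them. Ibsp and Mepe had r = 0.764 (exact permutation p = 0.0333, adjusted 0.05; rho = 0.857, p = 0.0238, adjusted 0.0357), and 0.492 without the 2 farthest mice. Leaving out the mice farthest from a gene's median narrows that gene's range. A lower r in the remaining 5 mice therefore decides nothing about a relation. All points share the library and its cell composition, and the differences between these coefficients were not tested. The 4 Control mice are too few for a correlation.

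The genes whose log2 CPM over the 11 libraries was most like each member, among 12973 genes with a mean count of at least 50, differed within the family. For Spp1 they were Mmp13 (r = 0.983), the collagenase of osteoblasts and hypertrophic chondrocytes, Rcan1 (0.957) and Slit2 (0.949). For Ibsp they were Tmem63b (0.974), Ocstamp (0.970), which encodes a transmembrane protein of osteoclast fusion, and Sdk2 (0.962). For Dmp1 they were Tmem63b (0.970), Bicc1 (0.946) and Ibsp (0.944), and for Mepe the kinase gene Fyn (0.939), Prr15 (0.936) and Nudt22 (0.932). Tmem63b was common to the lists of Ibsp and Dmp1. These coefficients describe 11 libraries of both groups and carry no test, so whether the lists differ was not tested. Ocstamp itself stood at 5.05 ± 3.55 CPM in Control and 11.3 ± 6.0 CPM in BMAd-DTA (edgeR adjusted p = 0.239).

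Col1a1, the main collagen chain of bone, served as a reference for bone matrix expression. It stood at 1245, 5588, 6226 and 5823 CPM in Control replicates 1 to 4 and from 7609 to 18037 CPM in BMAd-DTA, so all 7 BMAd-DTA libraries were above every Control library, as for 1.78% of tested genes. Its log2 difference was 1.35 ± 0.39 (SE; edgeR adjusted p = 0.115, DESeq2 adjusted p = 0.00991), greater than the point estimate of any SIBLING gene. Relative to Col1a1 in the same library, the mean log2 ratio was lower in BMAd-DTA for all 4, by -0.70 for Spp1, -0.48 for Ibsp, -0.94 for Dmp1 and -0.81 for Mepe. None of these passed after adjustment over 10 ratios (exact two-sided permutation; raw p = 0.367, 0.276, 0.0455 and 0.0909, adjusted p = 0.598, 0.582, 0.303 and 0.303).

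**Figure D4:**
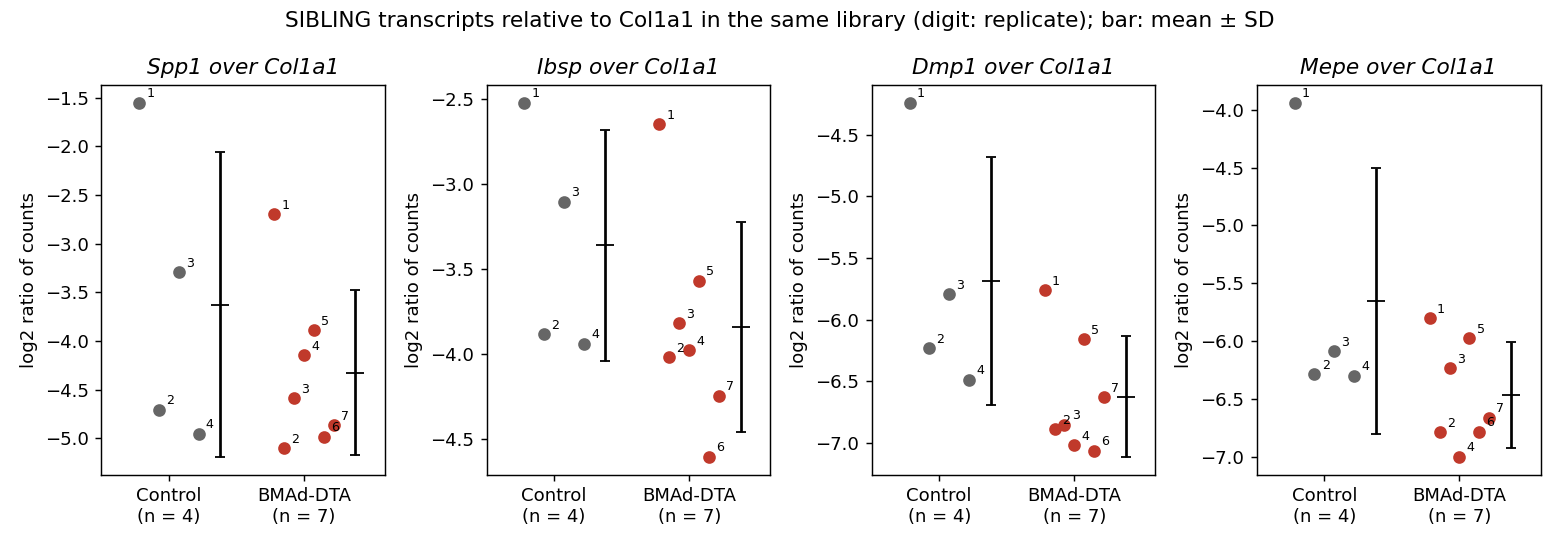
Log2 ratio of each SIBLING count to the Col1a1 count of the same library (vertical axis), 1 point per mouse with its replicate digit, and mean ± SD at the right of each group. Control replicate 1 is the highest point in every panel, at -3.94 for Mepe where the other Control points lie from -6.30 to -6.09.

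These ratios leaned on Control replicate 1, the library with little Col1a1. For Mepe over Col1a1 the Control values were -3.94, -6.29, -6.09 and -6.30, and the BMAd-DTA values ran from -7.00 to -5.80. Over the fits leaving out 1 library, the difference ranged from -1.20 to -0.46 for Dmp1, from -1.03 to -0.24 for Mepe and from -1.14 to -0.01 for Spp1.

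The surroundings of the cluster showed no common shift. Within 300 kb on either side, the annotation holds 13 protein-coding genes, 9 of them other than these 4 members, of which 5 were expressed enough to test. Dspp, also of the family, is among the 9. Sparcl1, a relative of the bone glycoprotein gene Sparc, was 126 ± 32.9 CPM in Control and 111 ± 25.6 CPM in BMAd-DTA, a log2 difference of -0.18 (edgeR adjusted p = 0.694). Hsd17b11 (0.05), Nudt9 (-0.11) and Klhl8 (0.08) had log2 differences close to 0, with edgeR adjusted p of 0.731, 0.550 and 0.918. Pkd2, the polycystin gene that starts 24.3 kb downstream of the Spp1 start, was 35.4 ± 3.99 CPM in Control and 43.2 ± 2.68 CPM in BMAd-DTA. Its log2 difference was 0.29 ± 0.08 (SE; edgeR adjusted p = 0.106, DESeq2 adjusted p = 0.0302). Hsd17b13, Gm17660 and BC005561 were not tested.

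**Figure D5:**
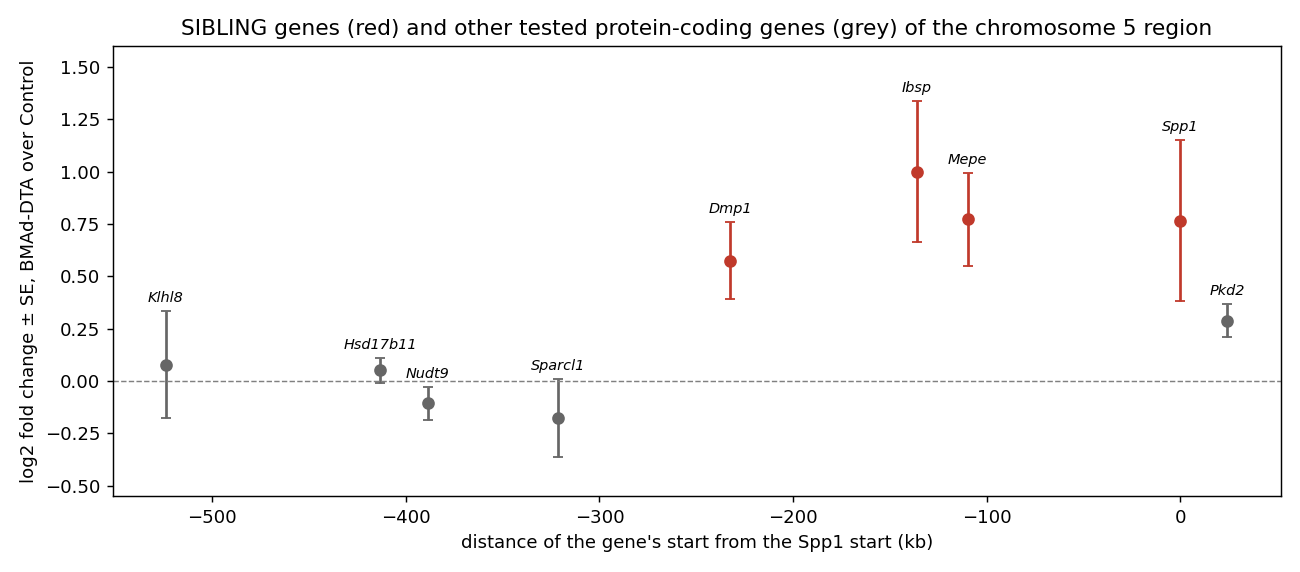
Log2 fold change of BMAd-DTA over Control with its SE (vertical axis) against the distance of the gene's start from the Spp1 start in kb (horizontal axis), for the 4 SIBLING genes (red) and the 5 other tested protein-coding genes within 300 kb of the cluster (grey). The red points lie from 0.57 to 1.0, and the grey points from -0.18 to 0.29.

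Dspp, the family member of dentin, lies next to Dmp1 in the same cluster and was at 0 counts on the transcribed strand in each of the 11 libraries. The limit that a count of 0 allows, 3 counts, corresponds to 0.161 to 0.177 CPM per library, for counting error only. Reads on the strand opposite to Spp1, Ibsp, Dmp1 and Mepe were 0.0715% to 0.690% of the pairs assigned to each on either strand. Of the other relatives listed, Sparc, whose protein binds collagen and calcium, was 1595 ± 602 CPM in Control and 3354 ± 1032 CPM in BMAd-DTA (log2 difference 1.07 ± 0.28, SE; edgeR adjusted p = 0.0957, DESeq2 adjusted p = 0.0161). For Sparc 7 of 7 BMAd-DTA libraries were above every Control library, as for 1.78% of tested genes. The enamel genes Ambn, Amtn, Enam and Odam did not pass the filter on low counts.

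Among receptors that read SIBLING proteins no gene passed the test. This held for 9 tested genes, integrin chains and Cd44, in edgeR or DESeq2, with 5 fitted higher and 4 lower and a median log2 difference of 0.05 (0.00 over all genes). The αv chain Itgav, shared by the Arg-Gly-Asp receptors, had the greatest difference, 0.45 ± 0.18 (SE; edgeR adjusted p = 0.238), followed by Itga8 at 0.18. Itgb3, its partner on osteoclasts, was at -0.11 (adjusted p = 0.777) and Cd44, a receptor of osteopontin, at 0.05 (edgeR adjusted p = 0.806). The lowest were Itga9 (-0.14) and Itga4 (-0.15).

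Enzymes that modify or cut SIBLING proteins were mostly fitted higher. Of 14 tested, 13 were fitted higher in BMAd-DTA with a median log2 difference of 0.55, 1 passed in edgeR and 5 in DESeq2, all on the higher side (0.0727% and 2.78% of all genes). Mmp2, a gelatinase that also cuts matrix glycoproteins, rose by 0.83 ± 0.12 on the log2 scale (SE; edgeR adjusted p = 0.0326), from 95.2 ± 8.01 to 169 ± 29.2 CPM. The other 4 passed in DESeq2 alone. They were the proprotein convertase gene Pcsk5 (0.64, edgeR adjusted p = 0.0675), the procollagen proteinase gene Bmp1 (0.94, edgeR adjusted p = 0.0895), whose product also cuts Dmp1, its relative Tll2 (2.12, edgeR adjusted p = 0.0675) and Phex (0.70, edgeR adjusted p = 0.0992), whose product binds Mepe and its acidic peptide. Tll2 was low throughout, at 0.627 ± 0.232 and 2.75 ± 1.11 CPM. The osteoclast protease gene Ctsk had a large but scattered difference of 1.27 ± 0.45 (SE; edgeR adjusted p = 0.173). The secretory kinase gene Fam20c, whose product phosphorylates these proteins, was at 0.36 (adjusted p = 0.195), Furin at 0.01 and the crosslinking enzyme gene Tgm2 at -0.26 (adjusted p = 0.356).

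All 12 tested transcription factors reported at SIBLING genes were fitted higher, with a median log2 difference of 0.71. None passed in edgeR and 8 passed in DESeq2, where 2.78% of all genes were called higher. Sp7 (osterix), required for osteoblast formation, was 41.5 ± 13.3 CPM in Control and 90.2 ± 19.6 CPM in BMAd-DTA (1.12 ± 0.21, SE; edgeR adjusted p = 0.0675, DESeq2 adjusted p = 1.82e-05). Among the others were the Notch target Hey1 (0.86), the vitamin D receptor gene Vdr (0.80), the homeobox genes Dlx5 (0.79), Dlx3 (0.76) and Dlx6 (0.56), and Twist1 (0.66), with edgeR adjusted p from 0.0663 for Dlx5 to 0.119 for Dlx6. Runx2, the first factor of the osteoblast lineage, was at 0.26 (adjusted p = 0.233), its partner Cbfb at 0.09 and Atf4 at 0.04.

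Among 11 tested genes of mineral and phosphate handling, 7 were fitted higher and 4 lower, with a median log2 difference of 0.46. Alpl, the phosphatase that frees phosphate for mineral, passed in edgeR, where it rose by 1.16 ± 0.17 on the log2 scale (SE; adjusted p = 0.0326). The edgeR calls of Alpl and Mmp2 were lost without Control replicate 1 or 2 or BMAd-DTA replicate 1 or 6, fits in which 0 genes passed and 1784 to 2626 had an unadjusted p under 0.05. Smpd3 (1.21) and the osteocalcin gene Bglap2 (1.24) passed in DESeq2 alone (edgeR adjusted p = 0.0881 and 0.113), and Bglap, which had the greatest difference at 1.28, in neither (edgeR adjusted p = 0.151). Reads of the near-identical Bglap and Bglap2 can be divided uncertainly between them. At the other end stood Fgf23, the hormone gene restrained by Dmp1 and Phex, at 1.95 ± 2.01 CPM in Control and 0.726 ± 0.5 CPM in BMAd-DTA (-1.42 ± 0.67, SE; edgeR adjusted p = 0.315), and Ahsg (-0.26).

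Marker sums of osteoblasts, osteocytes and chondrocytes, cells known to make SIBLING proteins, did not overlap between genotypes. Among single tested genes, 1.78% had all 7 BMAd-DTA libraries above every Control library, and no such share was computed for sums. The part of these cells in the SIBLING differences was not tested. Osteoblast markers summed to 2670 to 12313 CPM in Control and 14183 to 34814 CPM in BMAd-DTA (11 of 11 fitted higher, 1 past the edgeR and 8 past the DESeq2 threshold, against 0.0727% and 2.78% of all genes called higher). Osteocyte markers, counted without Dmp1 and Mepe, summed to 371 to 470 and 556 to 810 CPM (12 of 13 higher, none in edgeR, 6 in DESeq2). In both lists Control replicate 3 was the highest Control library, as for the 4 SIBLING genes. The same held for chondrocyte, osteoclast, macrophage, neutrophil, adipocyte, tendon and skeletal muscle marker sums, and not for erythroid or endothelial sums. Chondrocyte markers summed to 723 to 1253 and 1474 to 1878 CPM (12 of 12 higher, none in edgeR, 1 in DESeq2). Abundant genes weigh most in such sums, and Col1a1 and Col1a2 averaged 4720 and 3869 CPM in Control, most of the osteoblast sum. Among chondrocyte markers only Col2a1 had all 7 BMAd-DTA libraries above every Control library. Log2 differences in that list ran from 0.15 (Col10a1, of hypertrophic chondrocytes) to 1.14 (Col11a2).

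Marker sums of osteoclasts and macrophages, the other known sources of Spp1, overlapped between groups. The median log2 difference was 0.82 in the osteoclast list and 0.02 in the macrophage list. It was 1.21 for osteoblast, 0.59 for osteocyte and 0.54 for chondrocyte markers. Osteoclast markers summed to 3109 to 4625 CPM in Control and 3394 to 6156 CPM in BMAd-DTA (10 of 12 fitted higher, none in edgeR, 1 in DESeq2), and BMAd-DTA replicates 1 and 3, with the most Spp1, had the 2 highest sums (5708 and 6156 CPM). BMAd-DTA replicate 1, with 1173 CPM of Spp1, had the lowest osteoblast sum of its group (14183 CPM). Whether either cell type bears on the Spp1 levels was not tested. Mmp9, Car2 and Itgb3 had the largest Control means of the osteoclast list (1301, 977 and 539 CPM), and Car2 and Itgb3 were fitted lower. Macrophage markers summed to 3739 to 4202 and 3732 to 4618 CPM (6 of 11 higher, none in edgeR, 2 in DESeq2). The 2 were Gpnmb (1.59, DESeq2 adjusted p = 0.0102) and Cd68 (0.43, DESeq2 adjusted p = 0.00212). Lyz2, at 0.02, had the largest Control mean of that list (2508 CPM). Skeletal muscle markers summed to 33.2 to 1513 and 36 to 1190 CPM (0 of 15 higher, none past either threshold). With a muscle score in the edgeR fit, the log2 differences were 0.94 for Spp1, 0.92 for Ibsp, 0.54 for Dmp1 and 0.64 for Mepe.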

How the data were processed

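Whole distal tibiae gave 1 stranded paired-end library per mouse (4 Control, 7 BMAd-DTA). The authors aligned reads to mm10 with STAR, checked quality with FastQC 0.11.9 and deposited raw counts per gene for each library, plus a merged table of raw counts, which equals the read-strand counts of 22600 of 55401 genes and holds no gene with a sum under 11. The aligner version is not given in the sources used here. From these deposited counts, the merged table was filtered with filterByExpr (16496 genes), scaled by TMM and tested with edgeR 4.0.16 (quasi-likelihood, Benjamini-Hochberg over all tested genes, threshold 0.05). DESeq2 1.42.0 and limma 3.58.1 (R 4.3.3) were alternatives. Log2 CPM used a prior count of 2, and ratios used counts plus 0.5 with exact permutation tests (scipy 1.17.1). A column was taken for a sample by its mouse code. Replicate numbers follow deposit order and pair nothing. On simulated data with 200 changed genes, edgeR recovered 62.5% to 74% at a log2 change of 1 in size. Library pairs of a group differed beyond counting noise (chi-square per gene at least 16.7).

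The members and gene lists were chosen with earlier results of these data known. Named were the 4 members, Dspp, protein-coding genes within 300 kb, Col1a1, list genes passing edgeR or DESeq2 or at the ends of a pathway list, summed cell-type markers, and the 3 genes most correlated with each member. One list gene that this rule names is not reported here.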

Additional observations from a re-analysis of the deposited data

Results flagged for a closer look

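Among 28 groups of values tested with Dixon's criterion, 2 held a library far from the rest, close to the about 1 in 20 that chance gives. The groups share genes and libraries, so they are not independent. Mepe in BMAd-DTA replicate 3 stood at 239 CPM, the nearest library at 146 CPM, a gap of 0.622 of the group's range (critical value 0.568 for 7 libraries). The log2 ratio of Mepe to Col1a1 in Control replicate 1 stood at -3.94, the nearest at -6.09, a gap of 0.910 of the range (critical value 0.829 for 4 libraries). That library had the least Col1a1 of all 11 (1245 CPM) and an unremarkable Mepe level (81.2 CPM).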

How the results depend on the processing

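No paired analysis was made, because each mouse gave 1 library and the labels link no Control mouse to a BMAd-DTA mouse. The fitted differences of the 4 SIBLING genes were above 0 in all 35 alternatives each. Spp1 passed the threshold in none, and Ibsp in 1 (DESeq2 without Control replicate 3). With DESeq2 on all libraries, Dmp1 (0.57) and Mepe (0.77) passed. With 1 library left out, log2 differences ranged from 0.53 to 1.18 for Spp1, 0.78 to 1.39 for Ibsp, 0.49 to 0.79 for Dmp1 and 0.57 to 0.85 for Mepe. The ratio of Spp1 to Ibsp then ranged from -0.47 to 0.19 and that of Spp1 to Mepe from -0.11 to 0.37, changing sign. The number of genes past the threshold, 13 with edgeR, was 845 with DESeq2, 20 with limma-voom, 238 with sample quality weights, 20 with DESeq2 size factors in edgeR, 3 with a muscle covariate and 93 with the unmapped share as covariate. Leaving out 1 library gave 0 to 292 genes in edgeR and 213 to 1394 in DESeq2, the highest without Control replicate 3 in both. Where edgeR gave 0, 1784 to 2626 genes were at an unadjusted p under 0.05. DESeq2 fits without single libraries, the unmapped covariate and the split at 12% unmapped pairs were chosen after seeing the data. The causes were not tested. Each SIBLING gene had 1194 or more counted read pairs in every library, but there were 4 Control mice.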
